A study of Mus musculus with 5 samples.

Results

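Immediate early response genes are the genes that a cell transcribes first after a signal. Their transcription needs no new protein, because kinase cascades act on factors that already sit at their promoters, such as serum response factor at the CArG box and CREB at the cAMP response element. Their transcripts are short-lived, and most of the proteins are transcription factors or brakes on the same signals. In T cells they respond to the T cell receptor, where they link the first minutes of signalling to later gene expression. The 10 genes described here are Fos, Jun and Junb, which encode subunits of the dimeric factor AP-1, the zinc finger factors Egr1 and Egr2, the orphan nuclear receptor Nr4a1, the nuclear protein Ier2, the dual specificity phosphatases Dusp1 and Dusp2, and the mRNA decay factor Zfp36. They are a list of names, with no threshold on a measured value, and they are 10 of the 11608 genes in the deposited gene table.

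RNA polymerase II ChIP-Seq was done on Th2 cells grown in vitro, with an antibody to the form phosphorylated on serine 2 of its C-terminal repeats, which marks elongating polymerase and usually gathers towards the 3′ end of genes. Naive CD4+CD62L+ T cells from spleens of C57BL/6 mice, or of Parp14-/- mice on that background, 6 to 8 weeks old, were activated through CD3 and CD28 for 3 days under Th2 conditions with 10 ng/ml IL-4 and an antibody to IFN-γ and then expanded for 4 days in fresh medium with IL-2 and IL-4. The 4 groups were Parp14+/+, Parp14+/+ + PJ34, Parp14-/- and Parp14-/- + PJ34, each with 1 library. PARP-14 is an ADP-ribosyltransferase that acts as a cofactor of STAT6, and PJ34 inhibits enzymes of the PARP family in general. The dose and timing of PJ34 are uncertain, being 10 µM on differentiated Th2 cells in the labels and 5 µM during culture in the methods. An Input library from an equal mix of both genotypes served for calling enriched intervals and was not analysed further. How many mice went into a library is not given in the sources used here.

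Every library had been reduced to 8200000 alignments, and the heights of all genes summed to between 120655 and 130708 per library. Parp14 itself had average peak heights of 8 and 11 in the Parp14+/+ libraries, untreated and with PJ34, and of 6.67 in each Parp14-/- library, and enriched intervals covered 59.2% and 53.9% of its 38623 bp in the Parp14+/+ libraries against 6.95% and 8.51% in the Parp14-/- libraries. All 5 T cell markers had an interval in at least 1 library but only 2 of them in all 4, with summed heights of 41.5 to 47.5. All 5 Th2 markers also had one in at least 1 library, at 207 to 312, although Il5 had none in the Parp14-/- libraries. The 3 Th1 markers with a line summed to 56.0 to 87.0. Of the other cell types, Cd8a stood at a summed height of 3 to 6 with no interval. The 2 myeloid markers with a line stood at 6 to 12.5. Of these, Csf1r had an interval in every library but untreated Parp14-/-, and Itgam had none. The 5 B cell markers stood at 45.5 to 55.5. Only Cd79a among them had an interval, over a region whose heights are also those of the neighbouring ribosomal protein gene Rps19. The part of these cell types in the heights below was not tested.

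All 10 immediate early genes had a line in the gene table whose mm9 coordinates fit the gene, and all 10 carried an enriched interval in each of the 4 libraries. The value used is the average peak height, the mean over a gene's active regions of the highest pile-up of fragments, where an active region is a merged run of overlapping intervals. Each region gives a height at 1 point and not a sum over its length, but genes with several active regions are averaged over them, weak regions included. The genes are short, from 1817 bp for Junb to 7931 bp for Nr4a1. Nr4a1 had 2 active regions and each of the others had 1. In bulk cells, a smaller share of cells with polymerase on a gene and less polymerase on that gene per cell cannot be told apart.

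In the library order Parp14+/+, Parp14+/+ + PJ34, Parp14-/-, Parp14-/- + PJ34, used for every series of 4 values from here on, their median height was 29.2, 36, 35.5 and 40.0. The medians were 9.25, 10.0, 9 and 8.50 over the 8551 genes with an interval in at least 1 of the 4 libraries, and 13, 13, 13 and 12 over the 4006 of them with 1 active region. Of the 10, 7, 7, 8 and 8 lay above the 90th percentile of the 8551 genes. The Parp14+/+ library gave the lowest height, or tied for it, at 7 of the 10 genes (Fos, Jun, Junb, Egr1, Egr2, Dusp1 and Zfp36), and this count was also 7 when the libraries were scaled to a median ratio of 1. It was the lowest or tied at 25.6% of the 8551 genes.

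**Figure D1:**
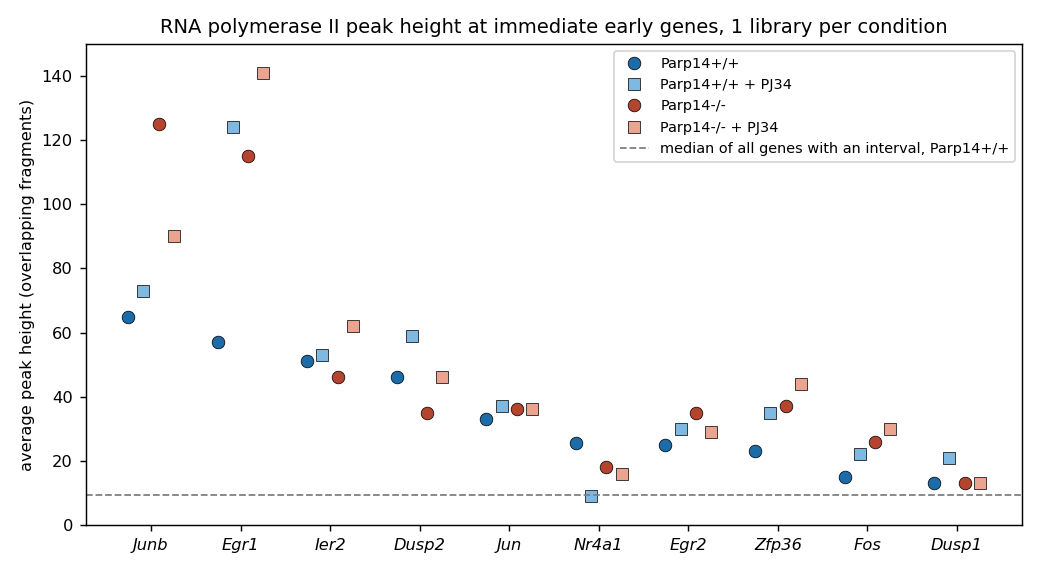
Average peak height (overlapping fragments, linear axis) of the 10 immediate early genes in the 4 libraries, 1 point per library, with the genes in the order of their Parp14+/+ height and a dashed line at the Parp14+/+ median of 9.25 over all genes with an interval. Junb and Egr1 reach 125 and 141, while Nr4a1 in Parp14+/+ + PJ34, at 9 as the average of 2 active regions, is the lowest point.

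For the order of levels, Nr4a1 was taken at the height of the region that holds the gene. Junb and Egr1 headed the order in every library, Junb first in both untreated libraries and Egr1 first in both PJ34 libraries. Most neighbours in that order could not be separated by counting error. The order came from the same heights, so no step has a ratio below 1, and the intervals of the steps are descriptive only. In Parp14+/+ none of the 9 steps from one gene to the next had a ratio whose 95% interval excluded 1. In Parp14+/+ + PJ34 this held for 1 step, Egr1 over Junb (ratio 1.70, 1.26 to 2.30). In Parp14-/- it held for 1 step, Egr1 over Ier2 (2.50, 1.76 to 3.60). In Parp14-/- + PJ34 it held for Egr1 over Junb (1.57, 1.19 to 2.06), Junb over Ier2 (1.45, 1.04 to 2.04) and Nr4a1 over Dusp1 (2.23, 1.12 to 4.67).

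The ratios below divide the height in the first library of a pair by that in the second. Their intervals are exact binomial (Clopper-Pearson) 95% intervals on heights summed over the active regions. They cover counting error only, not the difference between cultures. With 1 library per condition the libraries of a pair allow no test, and no test over the pairs was run. Ratios above 1.4 or below 0.7 are called past the limits in all 4 pairs. The study set these limits for the untreated genotype pair, and narrower ones for the PJ34 pairs, which are given beside those pairs.

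The AP-1 subunits differed among themselves. Fos (gene ID 14281, chr12:86814851-86818219, plus strand), the dimer partner of the Jun proteins, had heights of 15, 22, 26 and 30. Its Parp14+/+ height was the lowest of the 4. The ratio of Fos was 0.577 (0.284 to 1.13) in the untreated genotype pair, Parp14+/+ over Parp14-/-, and 0.682 (0.329 to 1.38) in the Parp14+/+ PJ34 pair, untreated over treated, both past the lower limit with intervals that include 1. Jun (16476, chr4:94715746-94718878, minus strand), the founding member of the family, was nearly flat, at 33, 37, 36 and 36. Junb (16477, chr8:87500831-87502647, minus strand), a Jun protein known to act at the Il4 gene in Th2 cells, had heights of 65, 73, 125 and 90. The untreated Parp14-/- library stood above the other 3. In the untreated genotype pair the ratio of Junb was 0.520 (0.379 to 0.707), that is 1.92 times higher in Parp14-/-. It was 0.811 (0.587 to 1.12) in the genotype pair with PJ34, and 1.39 (1.05 to 1.84) for untreated over treated Parp14-/- cells. Scaled to a median ratio of 1 over all genes, these became 0.707 (0.512 to 0.973) and 1.26 (0.955 to 1.67), so the first interval then excluded 1 and the second included it. The region of Junb also underlies the lines of Prdx2 and Hook2, which carry the same heights, and that of Jun the line of LOC100039265, so those heights belong to the region and not to 1 gene.

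Egr1 (13653, chr18:35020861-35024610, plus strand) shares no region with another gene. It encodes a zinc finger activator that is induced within minutes of T cell receptor signals. Its heights were 57, 124, 115 and 141. The untreated Parp14+/+ library was the low one and the other 3 lay close together. The ratio of Egr1 was 0.496 (0.354 to 0.687) in the untreated genotype pair and 0.460 (0.330 to 0.634) in the Parp14+/+ PJ34 pair. Both share the Parp14+/+ library. With PJ34 in both genotypes the ratio was 0.879 (0.685 to 1.13), and within Parp14-/- cells it was 0.816 (0.632 to 1.05). After scaling these were 0.767 (0.597 to 0.983) and 0.741 (0.574 to 0.955), with intervals that excluded 1. Egr2 (13654, chr10:67000626-67004936, plus strand), a related factor that restrains T cell activation, had heights of 25, 30, 35 and 29 and no ratio past the limits, with 0.714 (0.410 to 1.23) in the untreated genotype pair just inside the lower one. The line of Gm237 carries the same heights as Egr2.

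Nr4a1 (15370, chr15:101097293-101105223, plus strand), which encodes the receptor Nur77 and is widely used as a reporter of T cell receptor signal strength, went the other way. Its average heights were 25.5, 9, 18 and 16. Parp14+/+ was the highest library and Parp14+/+ + PJ34 the lowest. In the Parp14+/+ PJ34 pair its ratio was 2.83 (1.63 to 5.15). The genotype ratio was 1.42 (0.907 to 2.23) without PJ34 and 0.562 (0.297 to 1.03) with it, on opposite sides of 1, and scaling made the latter 0.490 (0.259 to 0.900). Over the region that holds the gene alone, the heights were 45, 14, 34 and 29, at percentiles 97.6, 72.3, 95 and 93.6 of all genes, and the ratio in that pair was 3.21 (1.73 to 6.34). On that region the genotype ratio was 1.32 (0.829 to 2.13) without PJ34, no longer past the limit, and 0.483 (0.236 to 0.943) with it. The other region, upstream of the gene, had heights of 6, 4, 2 and 3.

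Ier2 (15936, chr8:87183450-87186747, minus strand), a small nuclear protein, had heights of 51, 53, 46 and 62 and no ratio past the limits, over a region that reaches into Btbd14b. Its largest difference was between the Parp14-/- libraries (0.742, 0.495 to 1.10). Dusp1, Dusp2 and Zfp36 encode proteins that end the early response. Dusp1 (19252, chr17:26642536-26645406, minus strand), a nuclear phosphatase of MAP kinases, had heights of 13, 21, 13 and 13, so that the Parp14+/+ + PJ34 library alone stood out, with a ratio of 0.619 (0.285 to 1.30) in the Parp14+/+ PJ34 pair. At these heights counting error cannot separate it from the other 3. Dusp2 (13537, chr2:127161895-127164113, plus strand), a phosphatase of lymphocytes and other blood cells, had heights of 46, 59, 35 and 46. The genotype ratio of Dusp2 was 1.31 (0.828 to 2.10) without PJ34 and 1.28 (0.858 to 1.93) with it, and the PJ34 ratio was 0.780 in Parp14+/+ and 0.761 in Parp14-/-, all within the limits. The line of Astl carries the same heights as Dusp2. Zfp36 (22695, chr7:29161803-29164247, minus strand), which encodes tristetraprolin and speeds the decay of cytokine mRNAs, had heights of 23, 35, 37 and 44. Its region reaches into Ixl and Plekhg2. It followed Fos, with Parp14+/+ lowest and Parp14-/- + PJ34 highest, and its ratios were 0.622 (0.353 to 1.07) in the untreated genotype pair and 0.657 (0.371 to 1.14) in the Parp14+/+ PJ34 pair.

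**Figure D2:**
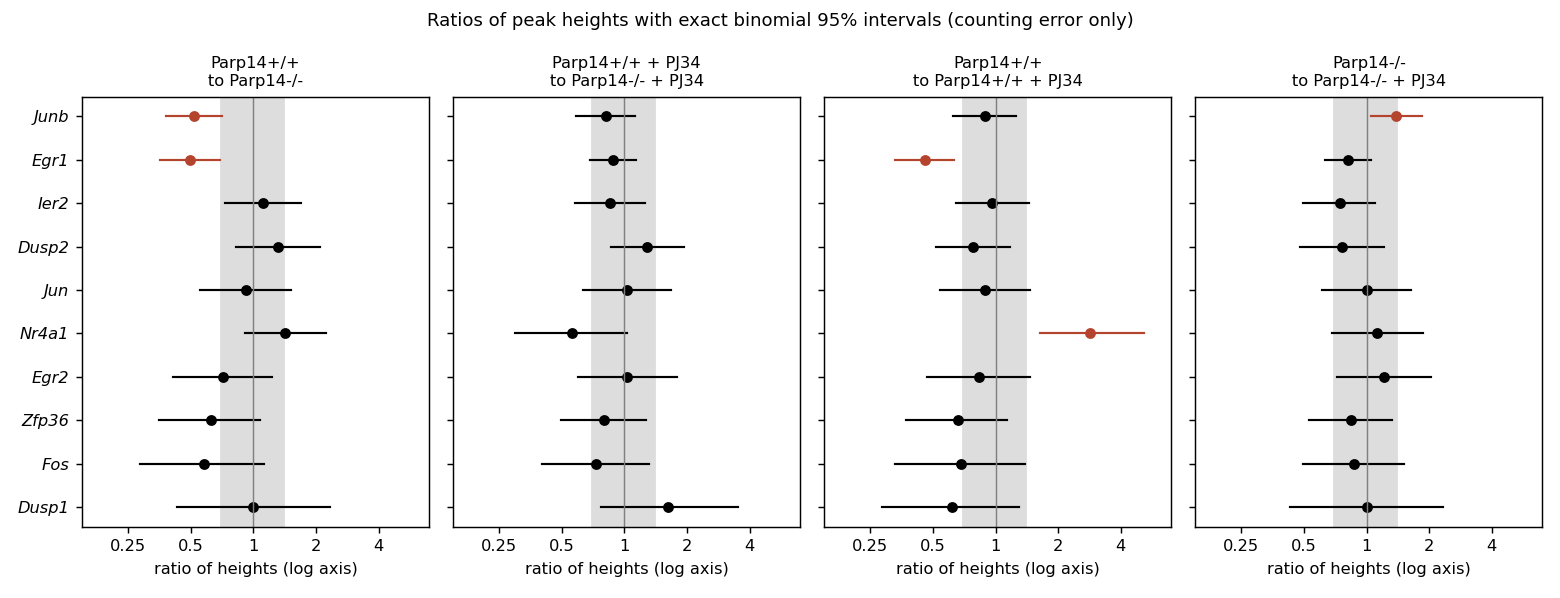
Ratio of average peak heights (log axis) for the 10 immediate early genes in the 4 pairs of libraries, with exact binomial 95% intervals (bars), a line at 1 and a grey band from 0.7 to 1.4. Red marks intervals that exclude 1, without scaling: Junb and Egr1 in the untreated genotype pair, none in the PJ34-treated genotype pair, Egr1 and Nr4a1 in the Parp14+/+ pair with and without PJ34, and Junb in the Parp14-/- pair.

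Between untreated Parp14+/+ and Parp14-/- cells, the pair that asks what loss of PARP-14 changes, 4 of the 10 immediate early genes were past the lower limit (Fos, Junb, Egr1 and Zfp36), against 11.0% of all genes, and 1 was past the upper limit (Nr4a1), against 12.8%. The interval excluded 1 for 2 of the 10, against 3.10% of all genes. That share, like the other interval shares of all genes below, is not matched for height, and the interval narrows as heights rise. The median ratio of the 10 genes was 0.815, with 6 below 1, 3 above and Dusp1 at 1.00, and the median over all genes was 1.00.

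With PJ34 in both genotypes, 1 gene was past the lower limit (Nr4a1), against 5.85% of all genes, and 1 past the upper (Dusp1), against 22.6%. The interval excluded 1 for 0 of the 10, against 3.48%. The median of the 10 genes was 0.867 and that of all genes 1.14, a shift of all genes of 0.19 on the log2 scale. When the libraries were scaled to take out that shift, 3 genes were past the lower limit (Fos, Nr4a1 and Zfp36) and 1 past the upper (Dusp1), and the interval excluded 1 for 3 (Junb, Egr1 and Nr4a1, all lower in Parp14+/+ + PJ34), against 3.01% of all genes. Jun and Egr2, both at 1.03 unscaled, moved to the other side of 1, so that 8 genes were below 1 in place of 6.

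Within Parp14+/+ cells, the pair that asks what PJ34 changes while PARP-14 is present, 4 genes were past the lower limit (Fos, Egr1, Dusp1 and Zfp36), against 11.0% of all genes, and 1 past the upper (Nr4a1), against 7.25%. The interval excluded 1 for 2 of the 10 (Egr1 and Nr4a1), against 1.61%. At the narrower limits of 1.2 and 0.83, 5 genes were below (Dusp2 joining the 4), against 27.6%, and 1 above, against 18.0%. The ratio was below 1 at 9 of the 10 genes, where 52.7% of all genes were. After scaling it was below 1 at 8, since Ier2 moved from 0.962 to just above 1, and Fos, at 0.711, was no longer past the limit. This pair and the untreated genotype pair share the Parp14+/+ library, so a low height there lowers both ratios at once.

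Within Parp14-/- cells, 0 of 10 lay above 1.4, against 15.0% of all genes, and 0 of 10 below 0.7, against 6.36%. At limits of 1.2 and 0.83, 2 lay above (Junb and Egr2), against 33.2%, and 3 below (Egr1, Ier2 and Dusp2), against 15.5%. The interval excluded 1 for Junb, 1 of 10, against 1.66%, and after scaling for Egr1 in place of Junb, 1 of 10, against 1.28%. The median was 0.933, against 1.08 over all genes, a shift of 0.12 on the log2 scale. After scaling, Ier2 (0.674) and Dusp2 (0.692) fell past the lower limit. For Egr1 the PJ34 ratio in Parp14+/+ cells divided by that in Parp14-/- cells was 0.564 (0.378 to 0.840), for Junb 0.641 (0.417 to 0.986) and for Nr4a1 2.52 (1.23 to 5.16), and the interval included 1 for the other 7. After scaling these were 0.647 (0.434 to 0.963) for Egr1, 0.736 (0.478 to 1.13), which includes 1, for Junb and 2.89 (1.41 to 5.92) for Nr4a1. These intervals come from the normal approximation on the log scale, treat summed heights as counts and leave out the spread between cultures, so the difference between genotypes in the response to PJ34 was not tested.

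**Figure D3:**
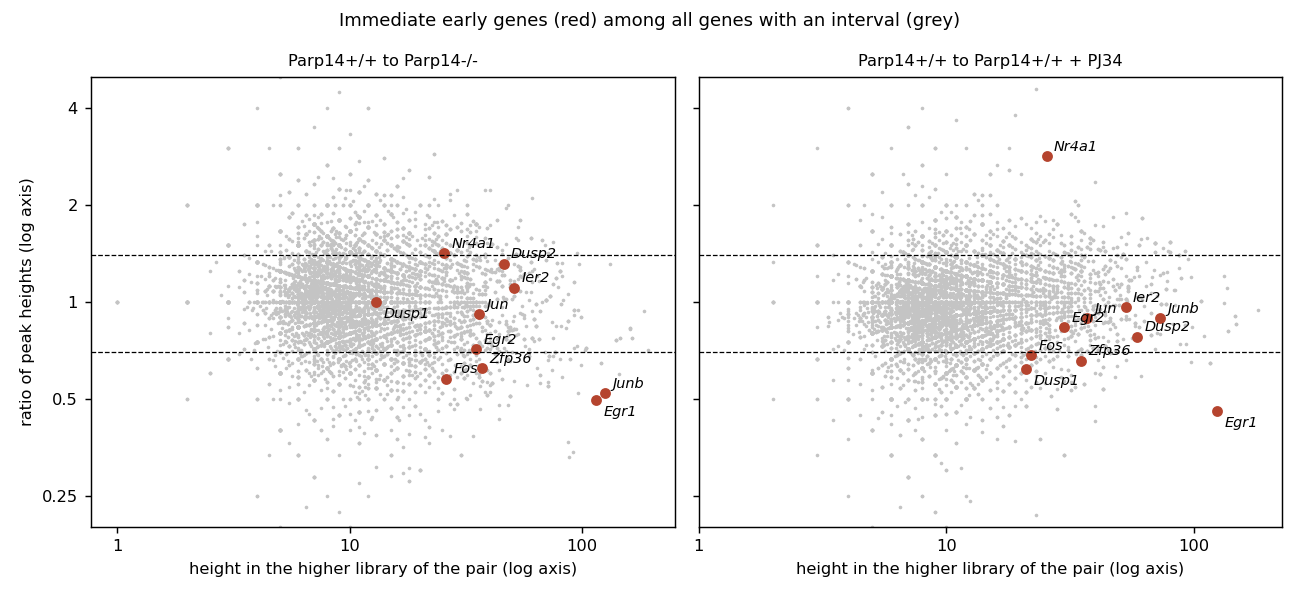
Ratio of average peak heights (log axis) against the height in the higher library (log axis) for all genes with an interval (grey) and the 10 immediate early genes (red), in the untreated genotype pair (left) and the Parp14+/+ pair with and without PJ34 (right). Dashed lines mark 1.4 and 0.7. Genes with a height of 0 or a ratio beyond the axis, 21 and 24 of 8551, are not drawn. Egr1 is low at the high end of both panels, Junb on the left, and Nr4a1 is high on the right.

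Promoter sequence is shown for 5 of the genes. The windows of Fos, Zfp36 and Egr2 hold 1 or both of the elements named at the start. Those of Junb and Nr4a1 hold no exact match to either. Each window is the 250 bases before the transcript start on NCBIM37, the assembly of mm9, read in the direction of transcription. For Egr2 that is the start in the gene table, 2403 bp after the start of the GENCODE gene model. Capitals mark a CArG box, taken as CCWWWWWWGG with W for A or T, or TGACGT, the core of the cAMP response element. Only exact matches were searched for, so a window without capitals may still hold variants of these elements. The windows are chr12:86814590-86814839 (plus strand) for Fos, chr7:29164275-29164524 (minus) for Zfp36, chr10:67000376-67000625 (plus) for Egr2, chr8:87502648-87502897 (minus) for Junb and chr15:101097027-101097276 (plus) for Nr4a1.
Fos: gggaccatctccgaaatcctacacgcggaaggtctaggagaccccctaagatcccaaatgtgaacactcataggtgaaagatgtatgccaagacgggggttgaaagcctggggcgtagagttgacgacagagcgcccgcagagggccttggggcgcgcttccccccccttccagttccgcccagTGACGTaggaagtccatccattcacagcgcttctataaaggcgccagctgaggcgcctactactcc
Zfp36: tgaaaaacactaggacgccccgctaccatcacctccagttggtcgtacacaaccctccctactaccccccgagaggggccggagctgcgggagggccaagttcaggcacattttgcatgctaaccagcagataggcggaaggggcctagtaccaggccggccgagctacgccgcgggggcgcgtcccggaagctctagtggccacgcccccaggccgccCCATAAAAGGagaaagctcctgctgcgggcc
Egr2: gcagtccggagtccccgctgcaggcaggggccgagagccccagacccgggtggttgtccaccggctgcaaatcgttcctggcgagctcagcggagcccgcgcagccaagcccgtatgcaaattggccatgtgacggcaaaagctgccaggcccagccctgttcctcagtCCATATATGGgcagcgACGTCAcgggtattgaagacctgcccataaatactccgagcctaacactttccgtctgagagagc
Junb: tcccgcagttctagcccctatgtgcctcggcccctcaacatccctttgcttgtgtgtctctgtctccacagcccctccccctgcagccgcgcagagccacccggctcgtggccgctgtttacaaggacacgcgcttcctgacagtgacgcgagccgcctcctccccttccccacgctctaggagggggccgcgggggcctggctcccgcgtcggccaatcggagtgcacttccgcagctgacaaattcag
Nr4a1: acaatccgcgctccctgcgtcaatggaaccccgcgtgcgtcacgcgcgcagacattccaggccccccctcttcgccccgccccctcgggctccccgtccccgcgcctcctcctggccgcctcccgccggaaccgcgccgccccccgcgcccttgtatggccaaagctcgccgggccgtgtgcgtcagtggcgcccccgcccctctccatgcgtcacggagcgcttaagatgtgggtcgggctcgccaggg

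Both strands of 9 promoters were searched, that of Egr1 not being used here. A match to the CArG pattern lay 31 to 22 bases before the start of Zfp36 and 81 to 72 before that of Egr2. That is 2 of 9 promoters against 1.05% of 11604 promoters of the gene table. The Zfp36 match holds the run ATAAAA and overlaps the distance at which TATAAA lies in Fos. Whether serum response factor binds either match was not tested. TGACGT was found in Fos (66 to 61 bases before the start), Egr2 (65 to 60), Ier2 (45 to 38, where the matches on the 2 strands overlap) and Dusp1 (144 to 139 and, overlapping on both strands, 96 to 89), which is 4 of 9 against 10.4%. TATAAA was found in Fos alone (33 to 28), 1 of 9 against 7.15%, and the AP-1 element TGANTCA in 0 of 9, against 4.15%. Junb, Nr4a1, Jun and Dusp2 held none of the 4 within 250 bases. Fos and Zfp36 had no exact match to the same element within these 250 bases. Sequence further upstream was not searched, and no link between elements and heights was tested.

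The summit of the interval, its highest point, lay past the annotated 3′ end at 5 or 6 of the 10 genes. Past the 3′ end were 6, 6, 5 and 5 of the 10 summits, against 44.6%, 42.6%, 40.2% and 39.0% of genes of like length. Junb (159 to 447 bp past the end), Egr1 (222 to 334 bp), Nr4a1 (270 to 825 bp) and Dusp2 (623 to 687 bp) had it there in all 4 libraries. Jun had it near the 3′ end in all 4, inside the gene in the untreated libraries and 194 bp past it in the PJ34 libraries.

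The summits of the other genes changed place between libraries. Zfp36 had its summit 171 and 251 bp past the end in the Parp14+/+ libraries and at the start, 23 and 39 bp into the gene, in the Parp14-/- libraries. Fos had it within 13 bp of the start except in untreated Parp14-/-, where it lay 693 bp past the end. Dusp1 and Ier2 had it within 91 bp of the start except in the same library, where it lay 1774 and 2331 bp into the gene. For Ier2 that point is 814 bp past the end of the shorter GENCODE gene model. Egr2 had its summit 643 bp past the end in Parp14+/+ and at the start in Parp14+/+ + PJ34 and Parp14-/-. In Parp14-/- + PJ34 it lay upstream of the start, at -658 bp. The GENCODE gene model of Egr2 starts 2403 bp before the start used here, so that point lies inside it. Whether these moves exceed the difference between cultures of 1 condition was not tested.

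**Figure D4:**
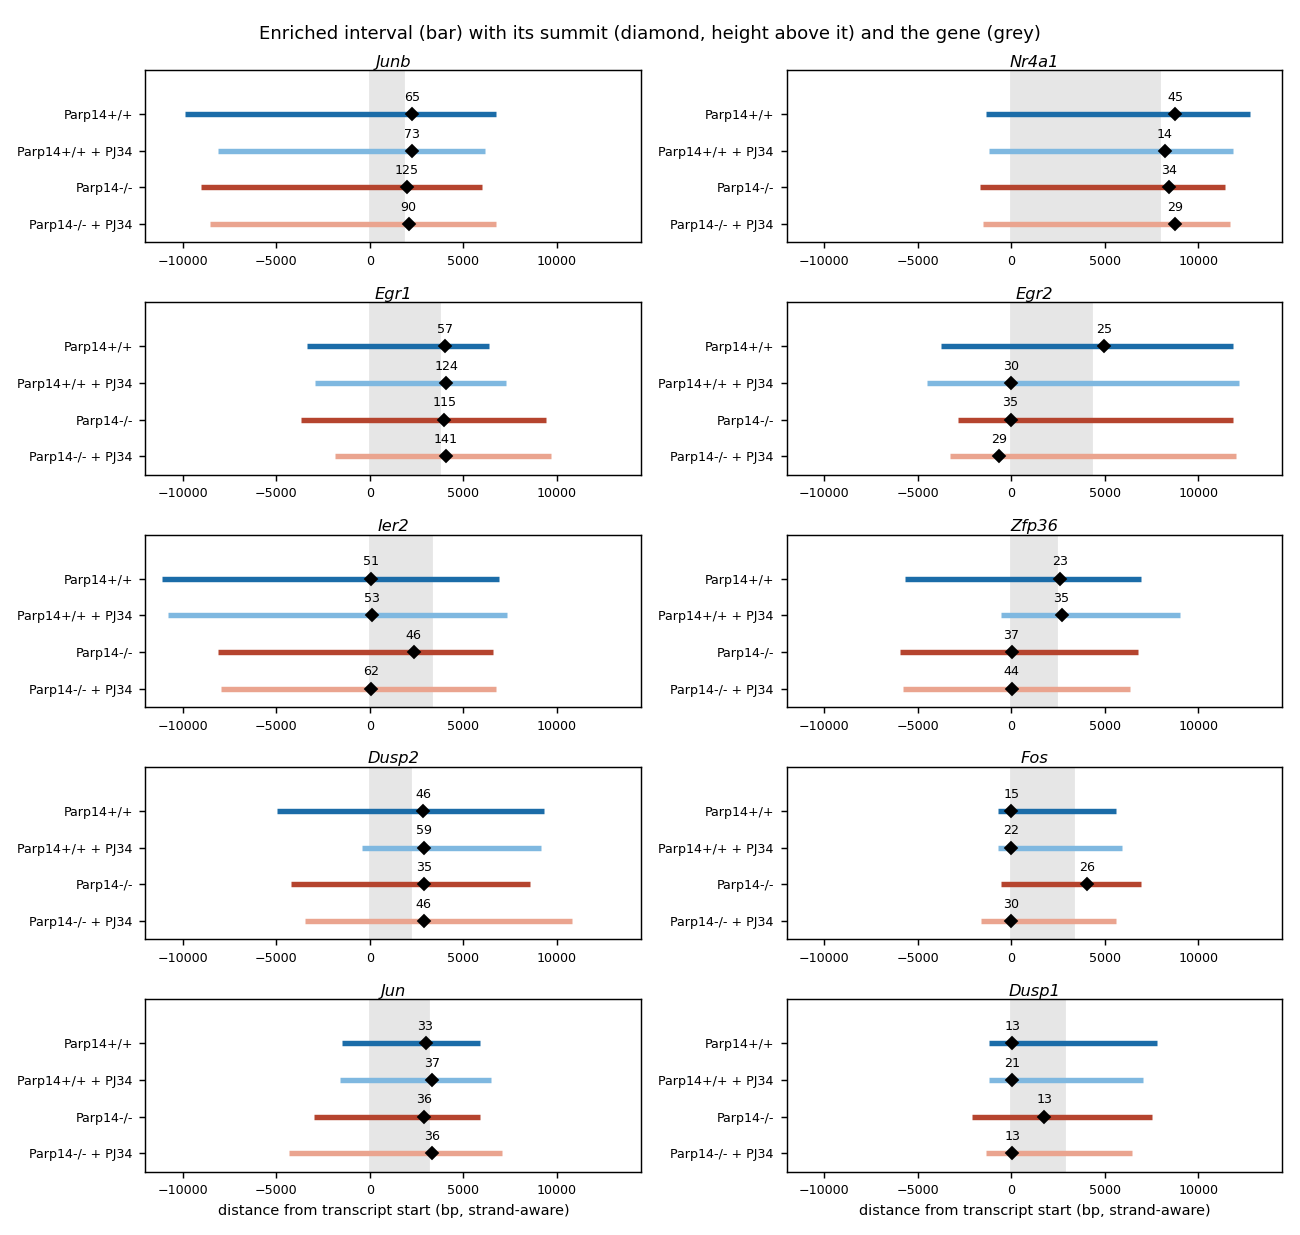
Enriched interval (bar), its summit (diamond, with the height above it) and the gene (grey) for the 10 immediate early genes in the 4 libraries, on a linear axis in bp from the transcript start in the direction of transcription. Intervals run past both ends of every gene, and the summits of Junb, Egr1, Nr4a1 and Dusp2 lie past the 3′ end in all 4 libraries while those of Zfp36, Fos, Egr2, Ier2 and Dusp1 change place.

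Intervals covered the whole of all 10 genes in every library, whereas 41.4%, 35.2%, 36.6% and 36.7% of genes of like length were covered whole. The interval over an immediate early gene had a median length of 13350, 9900, 12900 and 12675 bp, against 5250, 4350, 4500 and 4950 bp over all intervals of the library. The libraries themselves had 98.1, 82.4, 73.8 and 65.5 Mb under intervals, so the Parp14-/- libraries had less genome covered, and the interval lengths over the 10 genes did not follow that order.

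Of 41 further immediate early genes, 40 had a line (all but Egr4) and 39 an interval in at least 1 library, with median ratios of 0.872 in the untreated genotype pair, 0.891 in the genotype pair with PJ34, 1.09 in the Parp14+/+ PJ34 pair and 1.04 in the Parp14-/- PJ34 pair. In the untreated genotype pair 10 of the 39 were past the lower limit and 6 past the upper, and the interval excluded 1 for 8, where 11.0%, 12.8% and 3.10% of all genes were. In the treated genotype pair 9 were past the lower limit and 2 past the upper, and the interval excluded 1 for 4, where 5.85%, 22.6% and 3.48% of all genes were. Cd69, an early surface marker of T cell activation, had heights of 29, 41, 88 and 86. Both Parp14-/- libraries stood above both Parp14+/+ libraries, with ratios of 0.330 (0.209 to 0.506) without PJ34 and 0.477 (0.320 to 0.699) with it.

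The other genes of the 8 were chosen after their values were seen. Fosb, Nr4a3, Myc, Gadd45b, Rgs1 and Mcl1 were lower in Parp14+/+ than in Parp14-/-, with ratios between 0.481 for Fosb and 0.708 for Rgs1, while Cyr61 had a height of 6 in Parp14+/+ and was listed at 0 in Parp14-/-. Within Parp14+/+ cells 5 of the 39 were past the upper limit, 1 was past the lower and the interval excluded 1 for 1, where 7.25%, 11.0% and 1.61% of all genes were. Within Parp14-/- cells these counts were 5, 4 and 5, where 15.0%, 6.36% and 1.66% of all genes were. Fosl2, an AP-1 subunit, had heights of 65, 41, 56 and 36 and so was lower in both PJ34 libraries. Its unscaled ratios of untreated to treated were 1.59 (1.06 to 2.40) in Parp14+/+ and 1.56 (1.01 to 2.43) in Parp14-/-. The second interval only just excluded 1, in a pair where the median over all genes was 1.08. Scaled intervals are not given for the further genes. Without scaling, the interval excluded 1 in both PJ34 pairs for none of the 10 members. After scaling it did so for Egr1, at 0.479 (0.344 to 0.661) in Parp14+/+ and 0.741 (0.574 to 0.955) in Parp14-/-.

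The regulators of immediate early genes, namely partners of serum response factor, CREB family factors, MAP kinases and their kinases, and NFAT factors, had no ratio whose interval excluded 1 in any pair, among 18 genes with an interval of 21 listed, which at 1.61% to 3.48% of all genes is not a result about them. Their median ratios were 1.02, 1.15, 0.989 and 1.15 in the order of the pairs given for the further genes, and in the untreated genotype pair 1 of the 18 was past the upper limit and 2 past the lower, against 12.8% and 11.0% of all genes. The genes whose heights over the 4 libraries were most like the median profile of the 10 members were Map3k5, Nsmce2 and Gm885, at Euclidean distances of 0.0584, 0.0669 and 0.0682 on centred log2 heights, among 623 genes with an interval in all 4 libraries and a summed height of at least 50. That median profile, of -0.21, 0.03, 0.14 and 0.04, was nearly flat.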

How the data were processed

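The authors mapped reads with ELAND to mm9, removed duplicates, reduced each library to 8200000 alignments and called enriched intervals with SICER, which the submitters' processing notes name, against Input (window 150 bp, fragment 150 bp, gap 450 bp). They deposited interval tracks with summit heights and a gene table whose signal is the average peak height over active regions merged from 8 libraries. The 8 columns of libraries outside this series were not used. Lines were accepted by mm9 coordinates (GENCODE M1 on NCBIM37), since gene names were shifted in lines without an interval in Parp14+/+ libraries. Ratios used no pseudocount, and the limits, set by the study for the untreated genotype pair, were applied to all 4 pairs. With 1 library per condition there is no replicate error, and no test was run. Python 3.11.15, NumPy 2.4.6, SciPy 1.17.1 and matplotlib 3.10.9 were used. The code for the intervals was checked on simulated independent counts. Peak heights are maxima of overlapping fragments, which were not simulated, so whether the intervals hold for them was not tested. All 10 members were named. A gene of the other lists was named by rule where its interval excluded 1 in the same direction in both genotype pairs or both PJ34 pairs. The remaining further genes whose interval excluded 1 in the untreated genotype pair were also named, after their values were seen. Alternatives covered scaling, summits in place of the table, the limits, a height minimum and a pseudocount. The members and lists were chosen with earlier results of these data known.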

Additional observations from a re-analysis of the deposited data

Results flagged for a closer look

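Nr4a1 lay on opposite sides of 1 in the genotype pairs, with a Parp14+/+ to Parp14-/- ratio of 1.42 without PJ34 and 0.562 with it. Each pair has 1 library per condition, and the difference was not tested.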

How the results depend on the processing

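Of 130 recomputed ratios of the 10 genes, all moved by less than their counting interval and none of those past a limit or with an interval that excluded 1 reversed. Most of them could hardly do otherwise. The summit alternatives repeat the table's height at every gene but Nr4a1, and scaling left the untreated genotype pair unchanged. The counting intervals are also wide against a pseudocount of 1 or the scaling factors. The 130 therefore say little about how firm the ratios are. Counts moved more. In the untreated genotype pair 5 of 10 genes were past the limits as reported. Where the interval had to exclude 1, with or without scaling, 2 of 10 were called. With a summed height of at least 50 it was 3 of 4, and with a summit inside the gene 0 of 3. In the PJ34-treated genotype pair (2 as reported) the counts were 4 after scaling, 6 at limits of 1.2 and 0.83 and 0 by the interval (3 after scaling). They were 0 of 4 with a summed height of at least 50 and 1 of 2 with a summit inside the gene. In the Parp14+/+ pair (5 as reported) the counts were 2 by the interval, with or without scaling. They were 2 of 5 with a summed height of at least 50 and 1 of 2 with a summit inside the gene. In the Parp14-/- pair (0 as reported) they were 2 after scaling, 5 at limits of 1.2 and 0.83 and 1 by the interval, with or without scaling, though for Junb without and Egr1 with it. The interval after scaling was added after seeing the data. The height minimum is met through the higher library of a pair, so it favours genes that differ, and its counts support nothing. The summit inside the gene gave no value in 30 of 40 cases, since summits lay outside the gene. Intervals covered 81.2%, 78.5%, 81.5% and 82.0% of the genes with 5 kb on either side, in place of 100%, in Parp14+/+, Parp14+/+ + PJ34, Parp14-/- and Parp14-/- + PJ34. At the heights of Fos and Dusp1, 13 to 30 fragments, their intervals include 1 even for their ratios past the limits. No paired analysis over the genotype or PJ34 pairs was run. Each condition has 1 library, so no replicate could be left out.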
